A study of Homo sapiens with 2 samples.

Results

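NRIP1 on human chromosome 21 and the sparsely gene-filled sequence around it were examined for binding of oestrogen receptor α (ERα). The locus was taken as chr21:16000000-17100000 of the hg19 build, a window of 1.1 Mb, and a listed ERα peak belonged to it if its centre lay inside. By this rule 22 of the 12688 listed peaks were members. The gene interval was given as chr21:16333556-16437126 on the minus strand, so NRIP1 is transcribed towards lower coordinates. Its start is at 16437126 and its upstream side lies at higher coordinates. The window held 14 peaks upstream of NRIP1, 2 inside the gene and 6 downstream of it.

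The study had 1 ERα immunoprecipitation library and 1 input library, both from T47D, an established oestrogen receptor-positive breast cancer cell line of the luminal type. Both groups received the same hormone treatment: steroid-depleted medium for 48 h, then 10 nM 17β-estradiol for 45 min. The ERα library was made with the H-20 antibody, and the input library was made from chromatin of treated cells with no antibody step. There was therefore no hormone-free library among those analysed here, no replicate of either kind and no replicate error for any value. The peak positions describe occupancy after estradiol, not a change caused by it, and no p-value could be given. The number of reads behind a peak was unknown.

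NRIP1 encodes RIP140, a nuclear receptor cofactor. RIP140 binds the ligand-occupied ligand-binding domain of ERα and of other nuclear receptors through LXXLL motifs, short leucine-rich helices, and mostly represses transcription by recruiting histone deacetylases and CtBP proteins. It is known as an oestrogen-induced gene in breast cancer cells, which makes it a feedback regulator of the receptor that induces it, and as a regulator of energy metabolism in fat, liver and muscle. ERα binds DNA as a dimer, classically at oestrogen response elements made of inverted copies of the arm GGTCA, and much of its binding lies far from gene starts. The whole coding sequence of NRIP1 lies in its last exon, and the rest of its transcribed length is made of noncoding exons and introns.

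The label of a gene desert was compared with the gene order of RefSeq's GRCh38.p14 table, which is of another build, so that only the order was read. The nearest protein-coding genes were SAMSN1 on the downstream side and USP25 on the upstream side. Between SAMSN1 and NRIP1 the table listed 6 entries, of which 3 were long noncoding RNAs and 3 pseudogenes. Between NRIP1 and USP25 it listed 12, of which 8 were long noncoding RNAs, 3 pseudogenes and 1 a small nucleolar RNA. The entry next to NRIP1 on the upstream side was the long noncoding RNA LINC02920. In the hg19 band table the boundary between 21q11.2 and 21q21.1 falls at 16400000, inside NRIP1. The 6 downstream peaks and both peaks inside the gene thus lay in 21q11.2, and the 14 upstream peaks lay in 21q21.1.

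The start region of NRIP1 carried a peak of modest score. Peak sequences could not be read for want of an hg19 genome, so promoter sequence of another build is shown instead. RefSeq gives 3 starts for NRIP1 in GRCh38.p14, numbered here from the most upstream one, with start 2 at 936 bp and start 3 at 1346 bp downstream of start 1. The 250 bases before each start are printed 5′ to 3′ on the minus strand, from chr21:15065937-15066186 for start 1, chr21:15065001-15065250 for start 2 and chr21:15064591-15064840 for start 3. Capitals mark an arm of an oestrogen response element.
NRIP1 start 1: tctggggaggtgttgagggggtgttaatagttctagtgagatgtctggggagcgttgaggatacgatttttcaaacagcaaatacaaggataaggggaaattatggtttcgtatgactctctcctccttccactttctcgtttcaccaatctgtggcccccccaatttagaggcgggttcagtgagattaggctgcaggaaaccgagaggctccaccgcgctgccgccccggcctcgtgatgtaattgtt
NRIP1 start 2: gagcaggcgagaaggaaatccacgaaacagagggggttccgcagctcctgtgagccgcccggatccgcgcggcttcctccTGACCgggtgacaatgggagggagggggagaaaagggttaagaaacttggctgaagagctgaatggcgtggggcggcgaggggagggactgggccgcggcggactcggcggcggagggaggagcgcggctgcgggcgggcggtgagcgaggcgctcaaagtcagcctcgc
NRIP1 start 3: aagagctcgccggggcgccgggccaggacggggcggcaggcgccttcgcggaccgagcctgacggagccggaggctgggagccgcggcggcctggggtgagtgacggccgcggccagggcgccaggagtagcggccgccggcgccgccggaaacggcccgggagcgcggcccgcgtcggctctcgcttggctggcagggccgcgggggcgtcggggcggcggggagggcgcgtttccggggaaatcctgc

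The arm was searched as GGTCA and, for the other strand, TGACC, over the table's 300 bases per start, 250 before and 50 after it. Start 2 of NRIP1 had 1 arm, TGACC, whose first base lies 170 bases before the start, and the other starts had 0. Of all 35116 promoter entries of this length, 13125 (37.4%) held at least 1 arm, so the match at NRIP1 is a common one. Both arms in order, GGTCA then any 3 bases then TGACC, were found at 0 of the 3 NRIP1 starts and in 20 (0.06%) of all entries. The G and C content was 50.7%, 69.0% and 80.0% at starts 1, 2 and 3, against a median of 58.7% over all entries. These letters describe GRCh38.p14 windows only. Where they lie relative to the hg19 peak was not worked out, because coordinates were not carried between builds.

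ERα peaks were listed on both sides of the NRIP1 start, and the highest-scoring ones were distal to it. The score of a peak is the authors' value from their peak caller, on a scale that the sources used here do not state, and it serves only to rank peaks within this list. Over the list the median score was 128.27, with quartiles of 70.53 and 347.15. In the NRIP1 window the median was 213.85, with a lowest score of 53.69 and a highest of 3100. The 4 highest scores, in descending order, lay 146 kb upstream, 59.3 kb inside the gene, 522 kb upstream and 135 kb upstream of the start. No peak lay between 10 and 50 kb from the start on either side.

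**Figure D1:**
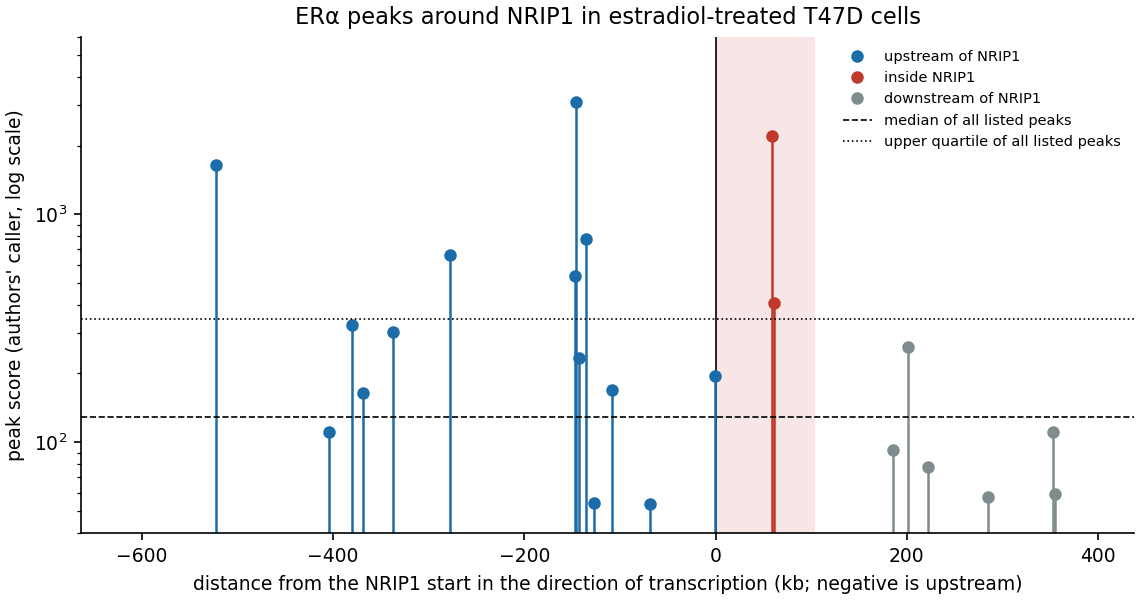
Score of each of the 22 ERα peaks (log axis) against its distance in kb from the NRIP1 start, with upstream at negative values, the gene shaded, and dashed and dotted lines at the median and upper quartile of all listed peaks. The tallest upstream peak scored 3100 at 146 kb, the tallest peak in the gene 2203.91, and the 6 downstream peaks at most 260.68.

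The peak nearest the start, chr21:16437713-16438188, was 476 bp wide and scored 194.07. Its centre lay 824 bp upstream of the start given for NRIP1, and 62.1% of the list scored lower. The 3 RefSeq starts spread over 1346 bp, and which of them the given start matches was not worked out. The peak may therefore lie downstream of another start, and it counts as upstream only by the given interval. It stood alone, with the next peaks 59.5 kb away inside the gene and 66.9 kb away on the upstream side. In score it was in place 12 of the 22 members, below the main peaks of the upstream group and of the gene body.

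The largest group of the locus lay 128 to 147 kb upstream of NRIP1. Peaks whose edges were within 10 kb of each other joined into 1 region of 19.9 kb, chr21:16564443-16584362, with 5 peaks. Its main peak, chr21:16582300-16583136, had its centre 146 kb upstream of the start, was 837 bp wide and scored 3100. This score is shared by 235 peaks of the list, and 34 peaks scored higher, so the rank of this peak can be given only as between 35 and 269 of 12688. On chromosome 21, where 9 peaks reached 3100 or more, it tied for place 2.

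The main peak had flanking peaks on both sides. At chr21:16583894-16584362 a peak of 469 bp scored 532.84, with 757 bp between its edge and that of the main peak. On the side nearer the gene, chr21:16580064-16580711 was 648 bp wide and scored 233.63, with 1588 bp between the edges. The next peak towards the gene, chr21:16571604-16572752, lay 135 kb upstream of the start and scored 775.65. With 1149 bp it was the widest of the 22. The last of the group, chr21:16564443-16564951 at 128 kb, scored 54.29, and 7.26% of listed peaks scored lower. The 5 peaks together covered 3612 bp of the 19.9 kb. Such neighbours may be separate sites or parts of 1 wider enriched region, and the peak list alone cannot tell these apart.

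Close neighbours were not rare around the highest-scoring peaks. Of the 269 peaks of the list that scored 3100 or more, 149 (55.4%) had at least 2 other peak centres within 10 kb, as the NRIP1 peak did, and 59 had none. After joining within 10 kb, 314 of 9292 regions (3.38%) on chromosomes 1 to 22 and X held 4 or more peaks. Of these, 86 included a peak scoring 3100 or more. Regions with at least as many peaks as the NRIP1 group were not counted separately.

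The gene body of NRIP1 held a close pair of peaks, one of them the second highest of the locus. The peak chr21:16377481-16378192 was 712 bp wide and scored 2203.91, above 96.1% of the list, in place 493 of 12688 and 13 on chromosome 21. Its centre lay 59.3 kb from the start and 44.3 kb from the other end of the gene interval. Its partner, chr21:16375695-16376156, was 462 bp wide and scored 406.55, above 77.4% of the list. The centres were 1.91 kb apart and the edges 1324 bp. The rest of the 104 kb gene interval was without a listed peak. The nearest peaks outside the pair were 124 kb away downstream and 59.5 kb away upstream, the second of these being the peak near the start. Whether the peaks of the pair overlap an exon or an intron was not assigned, since no hg19 exon annotation was used here.

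**Figure D2:**
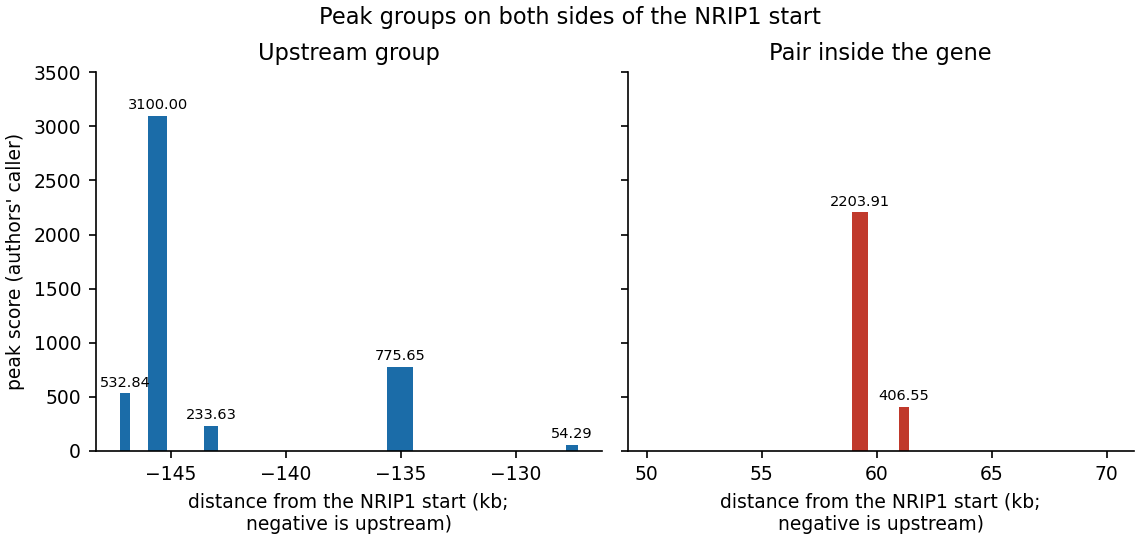
The 5 peaks of the upstream group (left) and the pair inside NRIP1 (right), each drawn as a bar with its true width in kb along the axis and its score as height, against distance from the NRIP1 start with upstream negative. In each group 1 peak, scoring 3100 upstream and 2203.91 in the gene, stood above neighbours of at most 775.65 and 406.55.

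Between the upstream group and the peak near the start, 2 isolated peaks were listed. The one at chr21:16545355-16545784, 108 kb upstream, scored 169.08. The other, chr21:16505114-16505531 at 68.2 kb, scored 53.69, the lowest value of the locus, and 6.46% of the list scored lower. Neither had another peak centre within 10 kb.

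Further upstream, in the part of the desert towards USP25, 6 peaks followed a stretch of 130 kb without any. None had another peak centre within 10 kb, but the edges of those at 368 kb and 380 kb were only 10.7 kb apart. The first, chr21:16714761-16715777, lay 278 kb from the start, was 1017 bp wide and scored 661.07, above 84.4% of the list. Peaks at 337 kb and 380 kb, chr21:16773610-16774101 and chr21:16816546-16817028, scored 305.1 and 326.23. Peaks at 368 kb and 404 kb, chr21:16805297-16805814 and chr21:16841367-16841807, scored 164.26 and 111.28. After another 117 kb without a peak came the most distant upstream member, chr21:16959044-16959787, centred 522 kb from the start. It was 744 bp wide and scored 1637.56, in place 3 within the locus, above 94.0% of the list and in place 18 on chromosome 21.

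The 6 downstream peaks scored low apart from 1. That one, chr21:16235586-16236075, lay 97.7 kb past the end of the gene and scored 260.68, above 69.2% of the list. The peak closest to the end of the gene, chr21:16251723-16252089 at 81.7 kb, scored 92.3, and chr21:16214866-16215491 at 118 kb scored 78.06. At 181 kb past the end, chr21:16152047-16152430 scored 57.39. The outermost downstream members were a pair with centres 2.27 kb apart, chr21:16084353-16084853 with a score of 111.28 and chr21:16082147-16082527 with 59.44. Of the 6, 5 scored under the median of the list.

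Peaks listed upstream of NRIP1 mostly scored higher than those downstream, and the number of peaks per Mb did not differ beyond counting error. Upstream there were 21.1 peaks per Mb (exact Poisson 95% interval 11.5 to 35.4) over 663 kb. Inside the gene there were 19.3 (2.34 to 69.8) over 104 kb, and downstream 18.0 (6.60 to 39.2) over 334 kb. The intervals overlapped widely, and with so few peaks they do not show equal density. The median score was 269.37 upstream, 1305.23 for the pair inside the gene and 85.18 downstream. Scores at or above the list's median were found for 11 of 14 upstream peaks (78.6%, Wilson 95% interval 52.4 to 92.4%), 2 of 2 in the gene and 1 of 6 downstream (16.7%, 3.01 to 56.4%). By definition 50% of the list reached it. The upstream and downstream intervals overlapped only from 52.4 to 56.4%. Such an overlap does not measure the difference between the 2 shares, which was not tested. Counting error is all that these intervals cover, and they take each peak as separate, which close neighbours may not be.

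The upstream side of the window is the longer one. Within the same 334 kb on the upstream side there were 9 peaks, or 27.0 per Mb (12.3 to 51.2), with a median score of 233.63, against 6 downstream, or 18.0 per Mb (6.60 to 39.2), with 85.18. Of these 9, 7 reached the median of the list, against 1 of the 6 downstream peaks. Among the 3172 highest-scoring peaks, which are 25% of the list, were 4 of the 9 (44.4%, Wilson 95% interval 18.9 to 73.3%) and 0 of the 6 downstream (0 to 39.0%). Both intervals included 25%.

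**Figure D3:**
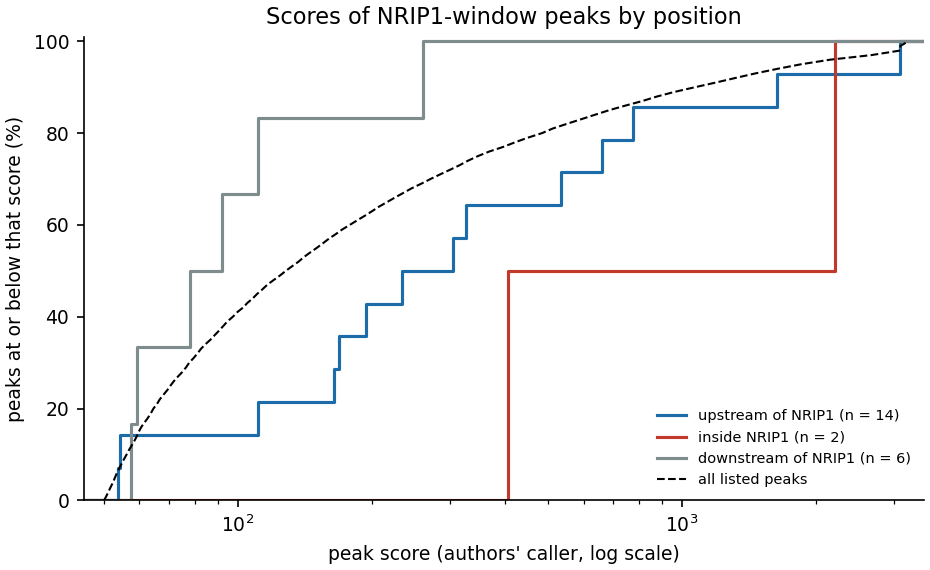
Cumulative share in percent of peaks at or below each score (log axis) for the 14 peaks upstream of NRIP1, the 2 inside it and the 6 downstream, with all listed peaks as the dashed line. The downstream line lies left of the list over most of its course and the upstream line right of it over the middle of the scale, with medians of 85.18 and 269.37 against 128.27.

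Across the locus as a whole the median score was 213.85, against 128.27 for the list, and the shares of high scorers lay above those of the list by less than their counting error. At or above the list's median were 14 of 22 peaks (63.6%, Wilson 95% interval 43.0 to 80.3%), an interval that includes the 50% of the list. Among the 3172 highest-scoring peaks, which are 25% of the list, were 7 of 22 (31.8%, 16.4 to 52.7%). These 7 were the main peak and 2 others of the upstream group, the upstream peaks at 278 and 522 kb, and both peaks in the gene. A score of 3100 or more was reached by 1 of 22 (4.55%, 0.807 to 21.8%), against 2.12% of the list. On the rest of chromosome 21 the corresponding shares were 54.2%, 26.1% and 3.36% of 238 peaks. For each of these 3 shares the interval at NRIP1 included the value of the list.

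Peak width at NRIP1 followed score as it did over the list. The 22 peaks had a median width of 491 bp (367 to 1149 bp), against 505 bp for all listed peaks. Width and score had a Spearman correlation of 0.631 across these 22 peaks and of 0.628 across all 12688. Peaks are not independent replicates, and both values come from the same caller. With the list divided into 10 equal classes by score, and each member set against the median width of its class, 9 members were wider and 13 were not. The furthest above were the peak at 135 kb (1149 bp against 639 bp) and the one at 278 kb (1017 bp against 639 bp). The main peak was 837 bp wide against 805 bp, and the higher peak in the gene 712 bp against 805 bp.

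**Figure D4:**
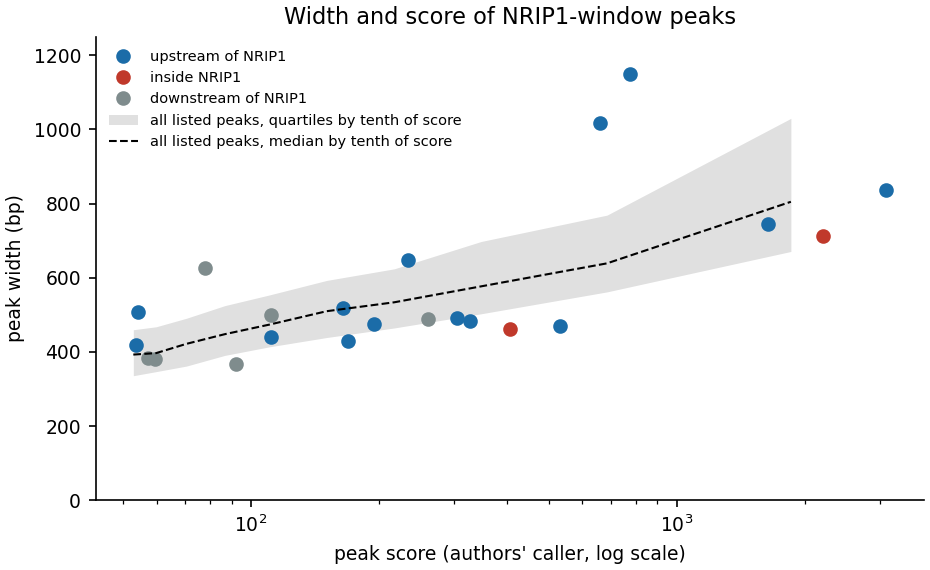
Width in bp of the 22 NRIP1-window peaks against score (log axis), with the median (dashed) and quartiles (grey) of all listed peaks in 10 equal classes of score. The upstream peaks of 1149 and 1017 bp lie furthest above the quartile band, and other members lie above, within and below it.

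In number of peaks, by contrast, the NRIP1 window held more than most stretches of its length. It held 20 peaks per Mb (exact Poisson 95% interval 12.5 to 30.3), against 5.06 per Mb (4.44 to 5.75) on the rest of chromosome 21 and 4.17 (4.09 to 4.24) on chromosomes 1 to 22 and X. It was thus 4.80 times as dense as chromosomes 1 to 22 and X (3.01 to 7.27), and each zone had a ratio above 4, although the interval for the gene, with 2 peaks, included 1. With 2.29% of the length of chromosome 21, the window carried 8.46% of its 260 peaks. All these values use whole hg19 chromosome lengths. Such lengths include unsequenced bases, which cannot hold a peak, so the background densities may be too low and the contrast too large. When chromosomes 1 to 22 and X were laid out in 2749 windows of the same length, the median window held 3 peaks and 599 held 0. At least 22 peaks were found in 50 of them (1.82%), and the fullest held 71. On chromosome 21, 2 of 43 windows held as many or more. These windows were laid end to end from each chromosome start, whereas the NRIP1 window was placed around the locus. Fixed windows can split a group of peaks that a placed window keeps whole, and here they split the locus. A boundary between fixed windows fell between the peak nearest the start and the one 68.2 kb upstream. The NRIP1 window is thus not itself 1 of the 2749. These shares can therefore overstate how unusual the NRIP1 window is.

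**Figure D5:**
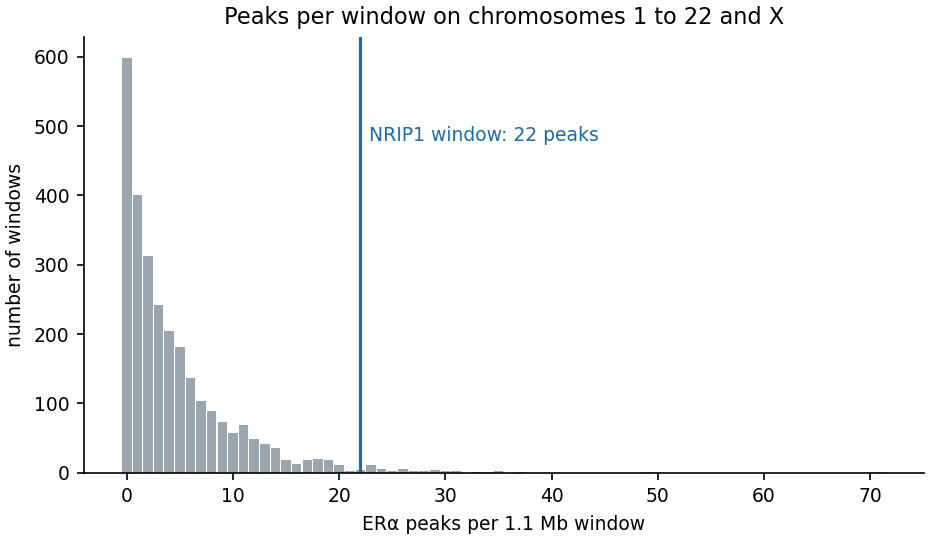
Number of 1.1 Mb windows on chromosomes 1 to 22 and X (bars) by the number of ERα peaks they hold, with a line at the 22 peaks of the NRIP1 window. The NRIP1 window is not among the windows counted. The median window held 3 peaks, and 50 of 2749 held 22 or more.

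High-scoring peaks were also numerous for a window of this size. At least 7 of the 3172 highest-scoring peaks were found in 68 of the 2749 windows (2.47%), and at least 1 peak of 3100 or more in 217 (7.89%). This count is not independent of the number of peaks in a window, and it too sets a placed window against fixed ones. The contrast with chromosome 21 was smaller when windows without any peak were left out. Against the mean of the 27 windows of that chromosome that hold a peak and do not touch the NRIP1 window, the ratio was 2.61. Copy number of this chromosome region in T47D cells was not used beyond the authors' input library, and its part in the count was not tested.

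The first member began at 16082147 and the last ended at 16959787, so that all 22 lay within 878 kb, at 25.1 per Mb over this span. Outside, the nearest listed peaks were chr21:15722498-15723140, 277 kb beyond the lower edge of the window with a score of 404.45, and chr21:17552056-17552424, 452 kb beyond the upper edge with a score of 80.31. The stretches without a peak that bordered the locus measured 359 kb on the downstream side and 592 kb on the upstream side. Inside, the 21 stretches between neighbours ran from 757 bp to 130 kb with a median of 24.3 kb, and 3 were over 100 kb. Stretches of this size were not compared with those elsewhere, and 599 of the 2749 windows of 1.1 Mb held 0 peaks. A stretch without a peak is not shown to lack binding, because weak sites depend on read depth, which is unknown.

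At short range, peaks at NRIP1 had neighbours about as often as peaks elsewhere. Another peak centre within 10 kb was found for 9 of 22 peaks (40.9%, Wilson 95% interval 23.3 to 61.3%), against 41.4% on all of chromosomes 1 to 22 and X and 47.9% on the rest of chromosome 21. Joined within 10 kb, the 22 peaks made 16 regions, of which 13 were single peaks. The other regions were the group of 5 upstream, the pair in the gene and the pair downstream.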

How the data were processed

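ERα binding was measured by sequencing immunoprecipitated chromatin of T47D cells, with 1 input library as background. The authors deposited 1 peak list with a start, an end and a score per peak, and no source used here states the scale of the score. Per the file, peaks are named with a MACS prefix. Bowtie 0.12.9, CASAVA 1.8, HOMER and hg19 appear without roles, per the submitters' processing notes. The sources used here do not give the caller's version, its threshold, or how duplicate and multiply mapping reads were treated, and read depth is unknown. Weak or repeated sequence could therefore be under- or over-represented.

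Starts, counted from 0 in the deposited file, had 1 added for printing. No peak ended past an hg19 chromosome end (0 chromosomes), against 13 for GRCh38 and 18 for hg18. Peaks belonged to a zone by their centre. Lengths came from GenomeInfoDb 1.38.1, with unsequenced bases included, and bands from circlize 0.4.16. Intervals are exact Poisson or Wilson at 95%. Counting was tested on simulated data. The rule names the 10 highest scores, the peaks next to the start, those in the gene and the outermost 2. The other 10 were named after their values were seen, and the window and comparisons were chosen with earlier results of these data known. Alternatives were score limits, joining of peaks, overlap by any base, other distances and other backgrounds. Software was pandas 2.3.3 and NumPy 2.4.6 for tables, SciPy 1.17.1 for intervals and matplotlib 3.10.9 for plots, in Python 3.11.15. Peak sequences were not analysed here, for want of an hg19 genome.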

Additional observations from a re-analysis of the deposited data

How the results depend on the processing

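Of 32 alternatives, 22 left the count within 1.5 times, or the density or share within its own 95% interval. A limit on score or joining of peaks can only keep or lower a count, so this tally does not measure how robust the results are. Restricted to scores at or above the list's median, the window held 14 peaks, of which 1 lay downstream. Among the 3172 highest-scoring peaks it held 7, with 5 upstream and 0 downstream, so that the downstream side rests on low scores, while the pair in the gene stayed at 2. Joining within 10 kb left 1 region in the gene. Limiting the upstream side to the reach of the downstream side left 9 peaks. The relative density ran from 3.95 to 6.12 under the other score limits, joining distances and the rest of chromosome 21 and was 2.61 against chromosome 21 windows with a peak. This background and the equal reach were chosen after seeing the data. With the 3172 highest scores as the limit, the share of high scorers was 31.8%. The share with a neighbour was 81.8% within 50 kb, against 68.0% of peaks on chromosomes 1 to 22 and X. No paired analysis was possible because there was 1 library of each kind. The unknown depth limits which weak sites could be listed, and 1 library gives no error for any peak.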
